A study of Capra hircus with 13 samples.

Results

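The genes of the poly(A)-binding proteins and of the proteins that bind them were followed in goat oocytes and early embryos. They are *PABPC1*, *PABPC1L*, *PABPC4*, *PABPN1*, *PABPN1L*, *PAIP1*, *PAIP2* and *PAIP2B*, 8 of the 18138 genes listed for all 13 libraries. Of these genes, 7 were taken by family name. *PABPN1L* was in addition chosen by its log2 fold change after knockdown of *YTHDF2*, one of the furthest rises, so in that contrast its values are a description without a test. Expression was measured as FPKM, the fragments of a gene scaled by its exon length and by the mapped fragments of the library, in 3 libraries each of untreated MII oocytes, 4-cell stage embryos and 8-cell stage embryos, and in 2 libraries each of injected 8-cell embryos, which had received either *YTHDF2* siRNA or a negative control (NC) siRNA. MII oocytes are mature oocytes arrested before fertilization, and the embryos came from in vitro fertilization (IVF) and culture. Every injected embryo of both groups received 5-10 pL of siRNA solution (20 µM for *YTHDF2*) in the cytoplasm 8 h after IVF, and embryos were pooled for each injected library. The labels call the NC embryos WT, although they were injected. Each siRNA group stands on 2 libraries, the untreated libraries were re-used from previous studies, and nothing in the labels ties a library to separate animals, so the p-values measure the spread between these libraries. The study behind each untreated library is not given either, so differences between the stages cannot be told apart from differences between those studies.

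Poly(A)-binding proteins coat the adenosine tail of mRNAs. In the cytoplasm, PABPC1 and its relatives join the tail to the cap-binding complex through EIF4G, which favours translation and stability, and PAIP1 acts with them while PAIP2 and PAIP2B displace them from the tail. In the nucleus, PABPN1 sets the length of the new tail, and its relative PABPN1L is an oocyte and early embryo protein of the cytoplasm that works with BTG4 in the clearance of maternal mRNAs in mice, whereas PABPC1L is the cytoplasmic form known from oocytes of frogs and mice. YTHDF2, a reader of N6-methyladenosine, brings methylated mRNAs to the enzymes that shorten the tail.

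The knockdown that separates the injected groups used a mixture of 2 siRNAs, shown here by their antisense strands, the strands that pair with the target, 5′ to 3′ with the seed (bases 2 to 8) in capitals.
siRNA 1: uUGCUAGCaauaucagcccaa
siRNA 2: uGGUCUAUaguauucaugcca
Both are 21 bases long, and their seeds differ. The expression of *YTHDF2* was 112 and 159 FPKM in the NC libraries and 8.07 and 4.47 FPKM in the *YTHDF2* siRNA libraries, a log2 fold change of -4.25 (SE 0.43, adjusted p = 0.00037, limma).

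The untreated libraries held 26853876 to 42495116 fragments, whereas the values of the injected ones, rounded to 2 decimals, did not give their depth. Of the fragments, 64.3% to 65.6% lay on recovered genes, listed in all stage tables, in MII oocytes and 94.0% to 96.2% in the embryos. The MII table also listed fewer gene names, 18880 against 21869 in each table of untreated embryos. Both differences separate the MII libraries from the embryos, and their part in every result against MII was not tested. Replicates correlated at 0.921 to 0.986 over log2 values, and the 8-cell replicate 1 stood furthest, at 0.921 and 0.944 from its partners against 0.979 between the others. Of 9 oocyte markers 8 were listed, none of them at 0 in any library, with a summed level of 1381 to 2368 FPKM in MII oocytes, 2084 to 3312 in 4-cell, 2473 to 2821 in 8-cell, 450 and 671 in NC and 850 and 1639 FPKM in *YTHDF2* siRNA libraries. Of 10 cumulus and granulosa markers 9 were listed in the untreated and 10 in the injected tables, summing to 27.6 to 67.4 FPKM in all libraries, mostly from *HAS2*, *VCAN* and *TNFAIP6*, while *FSHR* reached no more than 0.248 and *AMH* no more than 0.39 FPKM. Because the libraries are bulk samples, fewer cells of a type and less RNA per cell cannot be told apart, and since the cDNA was primed on the poly(A) tail, neither can a longer tail and more mRNA.

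The 8 genes lay far apart in level. On the FPKM scale, which is per exon length, *PAIP1* was the highest in all 5 groups, and its libraries did not overlap with those of the next gene in any of them. In the MII oocytes *PABPC4* and *PABPN1L* followed with overlapping libraries, then *PABPC1* apart from them, then *PABPN1* and *PAIP2*, which overlapped, and last *PABPC1L* and *PAIP2B*. In the 4-cell stage embryos *PABPC4*, *PAIP2*, *PABPC1* and *PABPN1L* formed a run in which each overlapped with the next, and in the 8-cell stage embryos the run was *PABPC4*, *PABPC1*, *PABPN1L* and *PAIP2*. In the NC embryos the order after *PAIP1* was *PABPC1* and *PAIP2*, which overlapped, then *PABPN1*, *PABPC4*, *PABPN1L*, *PAIP2B* and *PABPC1L*. Since the injected and untreated tables were scaled separately, levels are set side by side across them without a test.

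**Figure D1:**
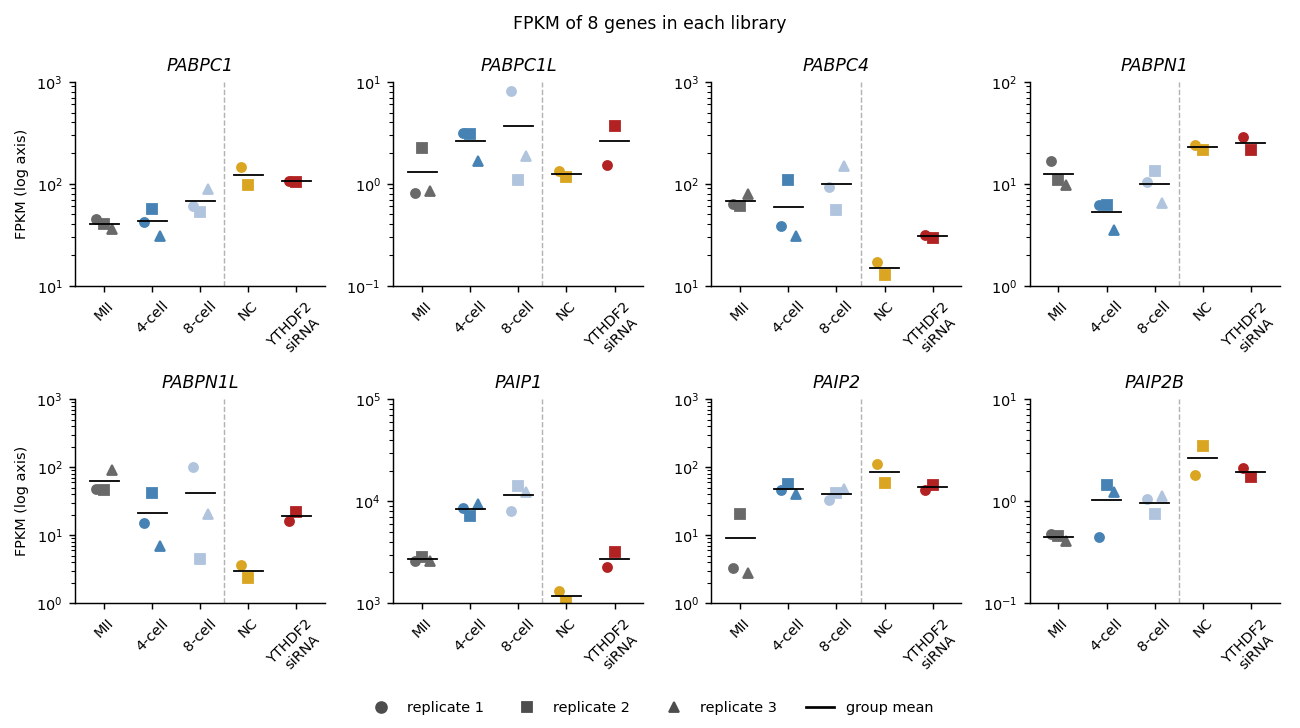
FPKM of each of the 8 genes (log axis, own range per panel) in the 3 MII, 3 4-cell, 3 8-cell, 2 NC siRNA and 2 YTHDF2 siRNA libraries, with a marker per replicate and a line at the group mean. *PAIP1* lay above the other 7 genes in all 13 libraries, and *PABPN1L* spread from 4.52 to 102 FPKM within the 8-cell libraries.

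Calls followed an unadjusted p under 0.05 with a change of more than 2-fold, the rule of the study, with the Benjamini-Hochberg adjusted p over all tested genes beside it. *PAIP2B* was under a mean of 1 FPKM in the untreated libraries and was not tested there, which left 7 of the 8 genes at the stages and all 8 after knockdown. Against MII oocytes, 2 of 7 were increased in 4-cell embryos, where 16.7% of all 9090 tested genes were, and 1 of 7 was decreased, against 6.06% of all. In 8-cell embryos, 2 of 7 were increased, against 19.8% of all genes, and 0 of 7 decreased, against 8.14%. Between the embryo stages, 0 of 7 were increased and 0 of 7 decreased, where 4.55% and 4.28% of all genes were. At an unadjusted p under 0.05 alone, limma gave 2 of 7 higher and 1 lower in 4-cell embryos, where 32.8% and 9.74% of all genes were, and 3 higher and 0 lower in 8-cell embryos, where 34.3% and 12.8% were. Between the embryos it gave 2 of 7 higher (*PABPC1* and *PABPN1*) and 0 lower, where 10.8% and 13.5% of all genes were. Where the rule of the study gave 0 with limma, voom also called 0. The libraries of 4-cell embryos and MII oocytes did not overlap for 4 of the 7 genes, where 51.9% of all tested genes did not. For 8-cell embryos against MII it was 3 of 7, against 50.1% of all, and between the embryo stages 1 of 7, against 28.2%. With so few genes these counts say little by number, and the genes are described one by one.

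The median log2 fold change of the 7 genes was 0.051 in 4-cell embryos and 0.69 in 8-cell embryos against MII, beside 0.29 and 0.37 over all tested genes, and 0.43 between the embryo stages, beside 0.072. These medians depend on the scaling. With median-ratio rescaling those of the 7 genes against MII were -0.24 and 0.32, beside 0.058 and 0.06 over all genes. With the same summed FPKM over the shared genes they were -0.48 and 0.28, beside -0.13 and 0.032. The share of calls that were increases moved from 73.4% to 51.0% and 34.7% in 4-cell embryos, and from 70.9% to 49.6% and 47.0% in 8-cell embryos. Between the embryo stages it moved from 51.6% to 45.8% with median-ratio rescaling and to 64.1% with the same summed FPKM. The median of all genes moved likewise from 0.072 to 0.0075 and 0.16, and that of the 7 genes from 0.43 to 0.35 and 0.54. Changes of single genes are therefore also given less the median of all genes.

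**Figure D2:**
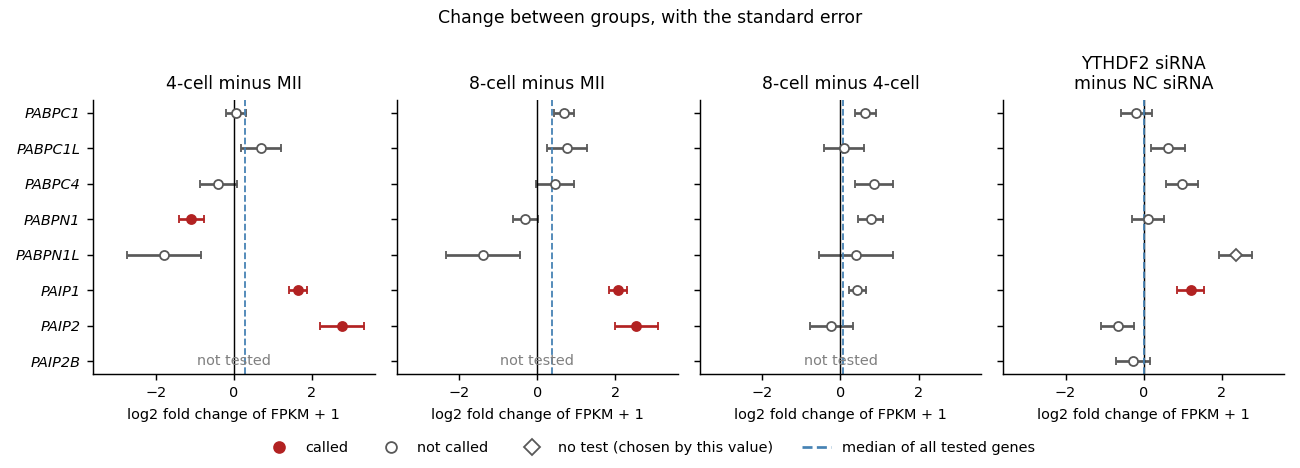
Log2 fold change of FPKM + 1 (points) with its standard error (bars) for the 8 genes in each of the 4 comparisons, the dashed line being the median of all tested genes. Filled points are called, and the diamond is *PABPN1L* in the contrast that chose it. *PAIP1* and *PAIP2* lay right of the line in both comparisons with MII oocytes, and *PABPN1* and *PABPN1L* left of it.

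Of the cytoplasmic poly(A)-binding proteins, *PABPC1* is the form of most tissues. Its expression was 44.7, 40.0 and 36.0 FPKM in the MII oocytes, 41.8, 56.1 and 30.6 FPKM in 4-cell embryos and 60.4, 52.4 and 88.8 FPKM in 8-cell embryos. The 8-cell libraries all lay above the MII libraries, while the 4-cell libraries ran across both. The log2 fold change against MII was 0.69 in 8-cell embryos (SE 0.26, adjusted p = 0.062, 0.33 above the median of all genes), under the 2-fold limit. In 4-cell embryos it was 0.051 (SE 0.26, adjusted p = 0.9), a value that turned to -0.24 and -0.48 under the other scalings. *PABPC1* is known for processed copies in mammalian genomes, and as only uniquely mapped reads were kept, its level is uncertain.

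*PABPC4*, a relative first found in activated T cells, was listed at 63.6, 60.1 and 78.8 FPKM in the MII oocytes, 38.1, 110 and 30.4 FPKM in 4-cell embryos and 93.7, 55.8 and 151 FPKM in 8-cell embryos. The 4-cell replicate 2 stood well above its partners and the 8-cell replicate 2 below its own, and the groups overlapped in every pair. The log2 fold change was -0.40 (SE 0.48, adjusted p = 0.57) in 4-cell embryos and 0.46 (SE 0.48, adjusted p = 0.48) in 8-cell embryos against MII, and 0.86 (SE 0.48, adjusted p = 0.3) between the embryos. The last value was called without the 4-cell replicate 2, at 1.42, and without the 8-cell replicate 2, at 1.22, while it was 0.50 without the 4-cell replicate 3 and 0.51 without the 8-cell replicate 3. The same 4-cell replicate 2 also had the highest summed oocyte markers, 3312 FPKM, and the part of this in the result was not tested.

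*PABPC1L*, the oocyte form of other vertebrates, was low in goat. It was listed at 0.818, 2.25 and 0.849 FPKM in the MII oocytes, which rest on 59, 167 and 76 fragments. It was 3.17, 3.09 and 1.69 FPKM in 4-cell embryos and 8.04, 1.10 and 1.86 FPKM in 8-cell embryos. A single library, the 8-cell replicate 1, held the highest value. The groups overlapped in all 3 comparisons, with log2 fold changes against MII of 0.69 (SE 0.51, adjusted p = 0.34) in 4-cell and 0.77 (SE 0.51, adjusted p = 0.26) in 8-cell embryos, and of 0.083 (SE 0.51, adjusted p = 0.93) between them. The 8-cell value against MII was 0.15 without the 8-cell replicate 1, and 1.20 (adjusted p = 0.092), a call, without the 8-cell replicate 2.

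Within a library, the ratio of a pair of genes does not depend on the library total. *PABPC4* stood at 1.42 to 2.19 times the FPKM of *PABPC1* in the MII oocytes, at 0.911 to 1.97 times in 4-cell embryos and at 1.07 to 1.70 times in 8-cell embryos. In the NC embryos the ratio was 0.117 and 0.131, and in the *YTHDF2* siRNA embryos 0.291 and 0.285. Thus *PABPC1* was the lower of the pair in 7 of 9 untreated libraries and the higher in all 4 injected ones, a difference between experiments that cannot be told apart from their separate preparation. *PABPC1L* held no more than 4.96% of the summed FPKM of the 3 genes in any library, and no less than 0.734%.

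**Figure D3:**
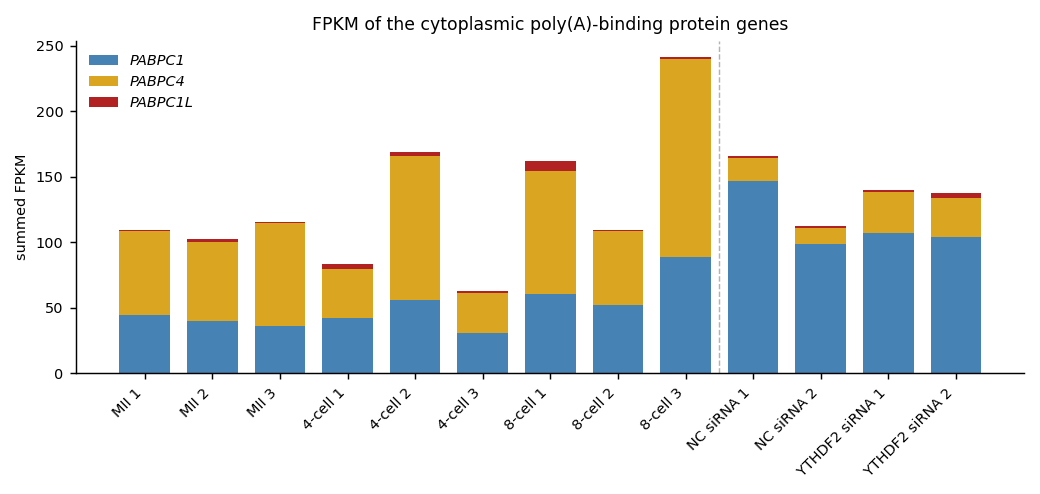
Summed FPKM of *PABPC1*, *PABPC4* and *PABPC1L* (stacked bars) in each of the 13 libraries, with a dashed line between the untreated and the injected tables, which were normalized apart. The sum ran from 62.7 to 241 FPKM, with *PABPC1* holding 75.7% to 88.8% of it in the injected libraries and 31.1% to 50.3% in the untreated ones.

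Of the nuclear form and its relative, *PABPN1* was decreased in 4-cell embryos. It was listed at 16.7, 11.0 and 9.79 FPKM in the MII oocytes, 6.24, 6.25 and 3.53 FPKM in 4-cell embryos and 10.4, 13.3 and 6.44 FPKM in 8-cell embryos. All 4-cell libraries lay below all MII and all 8-cell libraries, while the MII and 8-cell libraries overlapped. Its log2 fold change was -1.09 in 4-cell embryos against MII (SE 0.32, adjusted p = 0.028, 1.38 below the median of all genes). It was not called without the MII replicate 1, at -0.88, or without the 4-cell replicate 3, at -0.87. In 8-cell embryos it was -0.31 against MII (SE 0.32, adjusted p = 0.47). Set against 4-cell embryos it was 0.78 (SE 0.32, adjusted p = 0.17), and 1.04 (adjusted p = 0.11), a call, without the 8-cell replicate 3.

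*PABPN1L* had the widest spread between replicates. It was listed at 48.6, 46.5 and 92.4 FPKM in the MII oocytes, 14.9, 41.3 and 6.93 FPKM in 4-cell embryos and 102, 4.52 and 20.7 FPKM in 8-cell embryos. These values rest on 148 to 4677 fragments. All 4-cell libraries lay below the MII libraries, whereas the 8-cell libraries ran from below all of them to above all of them. The log2 fold change against MII was -1.79 in 4-cell embryos (SE 0.95, adjusted p = 0.18) and -1.39 in 8-cell embryos (SE 0.95, adjusted p = 0.28), neither of them called. The 4-cell value was called with median-ratio rescaling, at -2.08, with the same summed FPKM, at -2.31, and without the 4-cell replicate 2, at -2.43 (adjusted p = 0.091, 0.12 and 0.12), while without the 4-cell replicate 3 it was -1.22 and not called.

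The 8-cell value rested on the replicates 1 and 2. Without the first the difference from MII was -2.46 (SE 0.72, adjusted p = 0.023), a call, and without the other it was -0.35 (adjusted p = 0.74). Without either of these libraries the 4-cell value of -1.79 was called too, since the shared spread was then smaller. In the 8-cell replicate 1, which also held the most *PABPC1L*, the 8 listed oocyte markers summed to 2821 FPKM, against 2473 and 2688 FPKM in its partners. Of them 4 were the highest of the 8-cell libraries, 2 were the lowest and 2 lay between. The part of this in the values of *PABPN1L* and *PABPC1L* was not tested.

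The ratio of *PABPN1L* to *PABPN1* was 2.91, 4.21 and 9.44 in the MII oocytes and 2.38, 6.61 and 1.96 in 4-cell embryos. In 8-cell embryos it was 9.80, 0.34 and 3.22. The relative thus stood above *PABPN1* in 8 of 9 untreated libraries and below it in 3 of 4 injected ones.

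**Figure D4:**
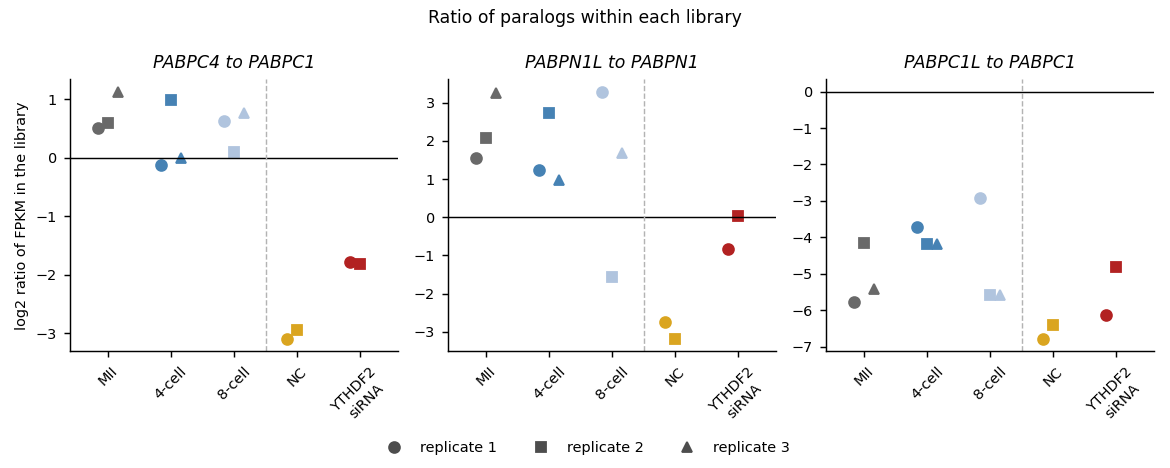
Log2 ratio of FPKM within each library for *PABPC4* to *PABPC1*, *PABPN1L* to *PABPN1* and *PABPC1L* to *PABPC1*, with a marker per replicate and a line at equal levels. The 4 injected libraries lay below all untreated ones for *PABPC4* to *PABPC1*. The YTHDF2 siRNA libraries lay above the NC libraries in both panels with *PABPC1*, which share that gene. They did so too for *PABPN1L* to *PABPN1*, where *PABPN1L* was chosen by this rise.

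Of the interactors, *PAIP1* and *PAIP2* were increased in the embryos of both stages, a difference that cannot be told apart from one between the studies the libraries came from. *PAIP1*, which promotes translation together with PABPC1, was listed at 2600, 2861 and 2593 FPKM in the MII oocytes, 8651, 7155 and 9384 FPKM in 4-cell embryos and 8050, 14209 and 12410 FPKM in 8-cell embryos. All embryo libraries lay above all MII libraries, and the 2 embryo stages overlapped. The log2 fold change against MII was 1.64 in 4-cell embryos (SE 0.22, adjusted p = 0.00075) and 2.07 in 8-cell embryos (SE 0.22, adjusted p = 0.00017), or 1.35 and 1.70 above the median of all genes. It was 0.43 (SE 0.22, adjusted p = 0.26) between the 2 embryo stages. *PAIP1* was called at both stages against MII in 16 of 16 ways of processing, with 1.10 to 1.75 and 1.64 to 2.31.

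The level of *PAIP1* was high, and the reads behind it were not analysed here, so how far they stem from *PAIP1* mRNA was not tested. By FPKM it ranked 6, 6 and 8 among the genes listed in the MII oocytes, 4 in each of the 4-cell libraries, and 2, 2 and 1 in 8-cell embryos. It took 271478 to 1192175 fragments, or 0.791% to 4.34% of a library. In the NC embryos it ranked 42 and 79, and in the *YTHDF2* siRNA embryos 31 and 19.

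*PAIP2*, an inhibitor of PABPC1, was listed at 3.29, 20.8 and 2.79 FPKM in the MII oocytes. It was 46.4, 55.8 and 40.7 FPKM in 4-cell embryos and 32.9, 41.1 and 48.0 FPKM in 8-cell embryos. Each embryo library lay above each MII library, though the MII replicate 2 stood several-fold above its partners, and this library also had the highest summed oocyte markers of its group, 2368 FPKM, a link that was not tested. The log2 fold change was 2.77 in 4-cell embryos (SE 0.56, adjusted p = 0.0057) and 2.54 in 8-cell embryos (SE 0.56, adjusted p = 0.0068). Without the MII replicate 2 it was 3.58 and 3.35. It was called at both stages in 16 of 16 ways of processing, while between the 2 embryo stages it was -0.23 (SE 0.56, adjusted p = 0.83).

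In a later release of the goat assembly the span of *PAIP2* overlaps that of *SLC23A1*, a vitamin C transporter, and is the only one of the 8 spans to overlap another gene. As the Smart-seq2 libraries carry no strand, reads of this overlap cannot be assigned. *SLC23A1* was listed at 0.0391 to 0.558 FPKM in the untreated libraries, and at 0.20, 5.49, 1.31 and 0.76 FPKM in the injected ones.

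*PAIP2B*, the close relative of *PAIP2*, was near the limit of the data. It was listed at 0.479, 0.456 and 0.408 FPKM in the MII oocytes, 0.449, 1.43 and 1.22 FPKM in 4-cell embryos and 1.04, 0.745 and 1.12 FPKM in 8-cell embryos, from 41 to 122 fragments. The 8-cell libraries lay above the MII libraries, and the other groups overlapped. When no filter on low values was set, the log2 fold change was 0.46 and 0.44 against MII (adjusted p = 0.25 and 0.22) and -0.016 between the embryos (adjusted p = 1).

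The FPKM of *PABPC1* was 13.6 and 12.9 times that of its inhibitor *PAIP2* in the MII replicates 1 and 3, and 1.93 times in replicate 2. In the untreated embryos the ratio was 0.751 to 1.85. Thus all 6 untreated embryo libraries had less *PABPC1* for each *PAIP2* mRNA than any MII library, on the FPKM scale.

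After knockdown of *YTHDF2*, 2 of the 8 genes were increased by the rule of the study, where 9.48% of all 11004 tested genes were, and 0 of 8 were decreased, where 15.3% of all were. At an unadjusted p under 0.05 alone limma gave 3 higher, with *PABPC4*, and 0 lower, where 11.9% and 17.6% of all genes were. *PABPN1L* is part of the count by choice, and without it 1 of 7 was increased. The median log2 fold change of these 7 genes was 0.12, beside 0.0054 over all genes. Under the adjusted p of limma 0 of the 7 were past the threshold, and 2 (*PAIP1* and *PABPC4*) had an unadjusted p under 0.05. The groups of 4 of the 7 other genes did not overlap, where 61.0% of all genes did not with 2 libraries against 2.

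*PABPN1L* was 3.59 and 2.34 FPKM in the NC embryos and 16.3 and 22.0 FPKM in the *YTHDF2* siRNA embryos. Both siRNA libraries lay several-fold above both NC libraries, with a log2 fold change of 2.35 (SE 0.43). It held place 3 of 496 genes with a symbol that were called as increased and had a mean of at least 10 FPKM, after *C8H9orf64* with 2.56 and *C5H12orf75* with 2.47, and just before *SIVA1* with 2.30. Leaving out single libraries gave 2.12 to 2.58. The knockdown values lay within the 4.52 to 102 FPKM of the untreated 8-cell embryos, and the NC values lay under the lowest of them, although the tables were normalized apart.

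*PABPN1* itself was 24.1 and 21.4 FPKM in the NC and 28.8 and 21.3 FPKM in the *YTHDF2* siRNA embryos, with a log2 fold change of 0.12 (SE 0.41, adjusted p = 0.86). The groups overlapped. The ratio of *PABPN1L* to *PABPN1* was 0.149 and 0.109 in the NC embryos and 0.565 and 1.03 after knockdown.

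Of the genes taken by family name alone, *PAIP1* was the only one called. It was 1323 and 1034 FPKM in the NC and 2239 and 3206 FPKM in the *YTHDF2* siRNA embryos, with the groups apart. Its log2 fold change was 1.20 (SE 0.35, adjusted p = 0.051), and 0.94 without the *YTHDF2* siRNA replicate 2 (adjusted p = 0.36), where the call was lost. All 4 values lay below those of the untreated embryos, on tables normalized apart.

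Of the cytoplasmic forms, *PABPC4* was 17.2 and 12.8 FPKM in the NC and 31.1 and 29.7 FPKM in the *YTHDF2* siRNA embryos. The groups were apart, at a ratio of means of 2.02, but the log2 fold change of 0.98 (SE 0.41, adjusted p = 0.13) fell short of the 2-fold limit. It was called at 1.03 with a pseudocount of 0.1 and at 1.18 without the NC replicate 1. *PABPC1* was 147 and 98.3 FPKM in the NC and 107 and 104 FPKM in the *YTHDF2* siRNA embryos, an overlap with a log2 fold change of -0.19 (SE 0.39, adjusted p = 0.77). *PABPC1L* was 1.33 and 1.17 against 1.52 and 3.72 FPKM, apart but low, at 0.62 (SE 0.44, adjusted p = 0.36).

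Of the inhibitors, *PAIP2* was 112 and 58.1 FPKM in the NC and 46.4 and 54.5 FPKM in the *YTHDF2* siRNA embryos. The siRNA libraries were the lower ones, with a log2 fold change of -0.67 (SE 0.43, adjusted p = 0.3) that was not called. It was called without the NC replicate 2, at -1.14, the library with 5.49 FPKM of *SLC23A1*, and was -0.21 (adjusted p = 0.82) without the NC replicate 1, the library at 112 FPKM. *PAIP2B* was 1.82 and 3.50 against 2.14 and 1.73 FPKM, an overlap at -0.28 (SE 0.43, adjusted p = 0.68).

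Markers also differed between the injected groups. The summed oocyte markers were 671 and 450 FPKM in the NC and 850 and 1639 FPKM in the *YTHDF2* siRNA embryos, and the summed cumulus markers 34.2 and 27.8 against 65.9 and 51.5 FPKM, with *AMH* and *FSHR* at or near 0 in both. Of 5 sperm markers 2 to 4 were listed. They summed to 4.65 to 26.7 FPKM in the injected libraries, carried by *TNP2* and *TNP1*, and to no more than 0.844 FPKM in the untreated ones. The part of these differences in the values of *PABPN1L*, *PAIP1* and *PABPC4* was not tested.

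The other genes of tail biology were read from lists of known partners and related factors. Of the partners of cytoplasmic poly(A)-binding proteins, 21 of 24 were tested, of which 5 were increased and 1 decreased in 4-cell embryos against MII, where 16.7% and 6.06% of all genes were. In 8-cell embryos 9 were increased and 1 decreased, against 19.8% and 8.14% of all genes. Between the 2 embryo stages 1 was increased and 0 decreased, against 4.55% and 4.28% (1 lower by limma at an unadjusted p under 0.05, 0 by voom). The median log2 fold change of the partners was -0.077, 0.88 and 0.38, against 0.29, 0.37 and 0.072 over all genes. *GSPT1*, the release factor that binds PABPC1, was higher by 1.54 in 4-cell embryos (adjusted p = 0.0016), and *EIF4E*, the cap-binding protein, by 1.51 (adjusted p = 0.00059), a call lost at 0.97 with the same summed FPKM. *MKRN1*, a ubiquitin ligase found with PABPC1, was higher by 1.82 in 8-cell embryos (adjusted p = 8.2e-05). *EIF4G3*, the bridge from cap to tail, was the decreased member in both, at -1.33 (adjusted p = 0.0014) and -1.90 (adjusted p = 0.00017). The counts in 4-cell embryos turned with the scaling, to 2 increased and 3 decreased with median-ratio rescaling and to 1 and 4 with the same summed FPKM. In 8-cell embryos they were 3 and 1 under both.

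After knockdown, 0 of these 21 partners were increased (0 too at an unadjusted p under 0.05, limma) and 1 decreased, where 9.48% and 15.3% of all genes were, with a median of -0.26 against 0.0054. It was *EIF4B*, a helper of the cap-bound helicase, at 70.1 ± 14.9 (SD, n = 2) FPKM in the NC and 34.4 ± 9.42 FPKM in the *YTHDF2* siRNA embryos, a log2 fold change of -1.02 (adjusted p = 0.12) that was not called with the replicate block, without the NC replicate 2 or without the *YTHDF2* siRNA replicate 2.

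Of the poly(A) polymerases and factors of cytoplasmic polyadenylation, 14 of 16 were tested at the stages, with 1 increased in 4-cell embryos, 3 in 8-cell embryos, 1 between them and 0 decreased in all 3 comparisons, against 16.7%, 19.8% and 4.55% of all genes increased and 6.06%, 8.14% and 4.28% decreased. The medians were 0.27, 0.28 and 0.24, against 0.29, 0.37 and 0.072. At an unadjusted p under 0.05, limma gave 0, 0 and 2 lower, and voom called 0 in each. With median-ratio rescaling and the same summed FPKM 3 and 2 were decreased in 4-cell embryos, and in 8-cell embryos 1 was increased under both, with medians that turned to -0.054 and -0.089. The 4-cell median was -0.16 with the latter. *PAPOLA*, the main nuclear polymerase, was higher by 1.52 (adjusted p = 0.0012) and 1.20 (adjusted p = 0.0027) in 4- and 8-cell embryos. It was not called in 4-cell embryos with the same summed FPKM, nor in 8-cell embryos with either rescaling. After knockdown 1 of 13 was increased and 1 decreased, against 9.48% and 15.3% of all genes, with a median of -0.18 against 0.0054. *PAPD4*, the cytoplasmic polymerase of oocytes, was 89.2 ± 0.94 (SD, n = 2) FPKM in the NC and 37.5 ± 2.59 FPKM in the *YTHDF2* siRNA embryos, at -1.23 (adjusted p = 0.064). *PAPD7*, a polymerase that adds mixed tails, was at 1.02 (adjusted p = 0.13), a call lost without the NC replicate 2 or either *YTHDF2* siRNA library.

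Nuclear 3′ end formation makes the tail on which PABPN1 acts. Of its 16 genes 13 were tested at the stages, with 3 increased and 0 decreased in 4-cell embryos, 3 and 0 in 8-cell embryos and 0 in either direction between the embryos, where 16.7% and 6.06%, 19.8% and 8.14%, and 4.55% and 4.28% of all genes were. The medians were 0.43, 0.30 and 0.058, against 0.29, 0.37 and 0.072. At an unadjusted p under 0.05, limma gave 0 and 0 lower against MII, and 1 higher and 4 lower between the embryos, where voom called 1 and 0 lower against MII and 1 higher between the embryos. *CPSF2*, of the cleavage complex, was higher by 1.62 (adjusted p = 0.00034) in 4-cell and by 1.06 (adjusted p = 0.0018) in 8-cell embryos, *NUDT21*, which guides the choice of site, by 1.56 (adjusted p = 0.0015) and *CSTF1*, of the stimulation factor, by 1.09 (adjusted p = 0.0014) in 4-cell embryos. Both rescalings took the call from *CSTF1* and from *CPSF2* in 8-cell embryos, as did leaving out the 4-cell replicate 1 and the 8-cell replicate 3 in turn. With median-ratio rescaling and the same summed FPKM 2 were increased and 2 decreased in 4-cell embryos, with medians of 0.19 and -0.016. In 8-cell embryos 1 was increased under both and 1 decreased with median-ratio rescaling, and the median turned to -0.032 and -0.066. After knockdown 0 of 15 were increased (0 at an unadjusted p under 0.05, limma) and 3 decreased, against 9.48% and 15.3% of all genes, with a median of -0.45 against 0.0054. They were *RBBP6* at -1.62 (adjusted p = 0.048), *CPSF3*, the endonuclease, at -1.35 (adjusted p = 0.091) and *NUDT21* at -1.18 (adjusted p = 0.069), and the call was lost without the *YTHDF2* siRNA replicate 2 for *RBBP6*, without the NC replicate 1 for *CPSF3* and without either of these for *NUDT21*.

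The list for nuclear RNA turnover was drawn around PABPN1, and not each gene in it is its partner. Of its 8 genes, 3 were increased and 1 decreased in 4-cell embryos, 1 and 0 in 8-cell embryos and 0 and 2 between them. Of all genes, 16.7% and 6.06%, 19.8% and 8.14%, and 4.55% and 4.28% were. The medians were 0.65, 0.10 and -0.38, against 0.29, 0.37 and 0.072. With median-ratio rescaling and the same summed FPKM the 8-cell median turned to -0.26 and -0.31, with 1 increased and 1 decreased under both, and the latter left 1 increased and 1 decreased in 4-cell embryos. At an unadjusted p under 0.05, limma gave 1 lower in 8-cell embryos and 0 higher between the embryos, and voom called 0 of both. *RBM7*, of the nuclear exosome targeting complex, was 2.59 ± 0.461 (SD, n = 3) FPKM in the MII oocytes, 32.4 ± 7.22 FPKM in 4-cell embryos and 32.7 ± 9.37 FPKM in 8-cell embryos, higher by 3.20 in both (adjusted p = 9.3e-05 and 5.6e-05). *SKIV2L2*, the helicase of that exosome, was higher by 1.45 in 4-cell embryos (adjusted p = 0.0017) and lower again by the 8-cell stage, at -1.08 (adjusted p = 0.025), neither of them called with the same summed FPKM, nor the second without the 4-cell or the 8-cell replicate 1. After knockdown 0 of the 8 were increased (0 at an unadjusted p under 0.05, limma) and 1 decreased, against 9.48% and 15.3% of all genes, with a median of -0.45 against 0.0054, and it was *SKIV2L2* at -1.15 (adjusted p = 0.094), a call lost without either NC library or without the *YTHDF2* siRNA replicate 2.

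The genes most like *PABPN1L* over the 9 untreated libraries were *CERS2*, *STK35* and *FAM110A*, with Pearson's r of 0.988, 0.978 and 0.972 over log2 values, of 3672 genes compared. Among those most like *PABPC1L* were *LRRC59* and *LHX8*, at 0.948 and 0.937 of 3673 genes. Libraries of a stage share their preparation, and the 8-cell replicate 1 was the highest library for both *PABPN1L* and *PABPC1L*, so these values describe likeness over the libraries and carry no p.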

How the data were processed

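RNA-seq values of 13 goat libraries were used. The authors made Smart-seq2 libraries, mapped the reads with HISAT2 (goat assembly ARS1), used uniquely mapping ones for counting in HTSeq and deposited FPKM values for each library. The untreated libraries were re-used from 2 previous studies, and the study of each is not given in the sources used here. Names that a table repeats were dropped. Fragments and totals of the untreated libraries were recovered from the steps of the FPKM values, for 9072 of 9073 genes (within 0.005 fragments). A floor of 3 fragments lies at 0.0183 to 0.0938 FPKM for these genes, for counting error only.

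Genes averaging 1 FPKM or more entered the fit of log2(FPKM + 1) with limma 3.58.1 (R 4.3.3), the 9 untreated libraries in 1 model and the 4 injected ones in another. DESeq2, the tool of the study, needs counts and was not used. Fold changes on this scale understate the change of low genes. The fits were also run on simulated data, which held no difference in scaling or study and so do not bear on those limits. Alternatives were another pseudocount, no filter, median-ratio rescaling, the same summed FPKM over shared genes, a replicate block, leaving out libraries, voom on recovered fragments and the adjusted p. The crossed replicate block was chosen after seeing the data. The 8 genes, the gene lists and the tests were chosen with earlier results of these data known. Named are the 8 genes, up to 3 called genes per list and comparison averaging 10 FPKM or more, and the 3 genes most like *PABPN1L* and *PABPC1L*, of which some are not reported here. Gene symbols were matched to a RefSeq table of the later assembly ARS1.2, where 99.9% of shared names had an entry, and no coordinates are given. Python 3.11.15 with pandas 2.3.3 and numpy 2.4.6 was used for the rest.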

Additional observations from a re-analysis of the deposited data

How the results depend on the processing

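*PAIP1* and *PAIP2* against MII kept their calls under every alternative run. Directions turned as follows. *PABPC1* at the 4-cell stage was -0.24 with median-ratio rescaling, -0.48 with the same summed FPKM, and -0.16 to 0.27 when single libraries were left out. From the 4- to the 8-cell stage, *PABPC1L* was -0.0096 with voom and -0.54 to 0.51 without single libraries, and *PABPN1L* -0.67 to 1.43. After knockdown, leaving out single libraries gave -0.48 to 0.10 for *PABPC1*, -0.084 to 0.33 for *PABPN1* and -0.62 to 0.054 for *PAIP2B*. Genes called as increased against MII fell from 1518 to 934 and 614 at the 4-cell stage and from 1804 to 1139 and 1057 at the 8-cell stage with median-ratio rescaling and the same summed FPKM. From the 4- to the 8-cell stage, the 803 calls (414 increased) became 672 to 1297 (286 to 818 increased) without single libraries, highest without the 8-cell replicate 2, and 496 (208 increased) under the adjusted p, and 0 to 1 of the 8 genes were called. In the knockdown, 2728 calls (1043 increased) became 878 (227 increased) under the adjusted p, with 1 of the 8 genes (*PABPN1L*, which this contrast chose), and 1868 to 3294 (545 to 1331 increased) without single libraries, with 1 to 3 of the 8. The cause was not tested.

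Same-numbered libraries did not deviate together (correlations of -0.51 to 0.20 at the stages, -0.15 in the knockdown). With so few libraries per group these correlations cannot tell whether the numbers pair the libraries. With the replicate block 2064, 2509, 784 and 2688 genes were called in the 4 comparisons, against 2069, 2544, 803 and 2728, and no call of the 8 genes changed. The crossed replicate block of the knockdown called 2810. With 1 library left in a group, it is assumed to vary like the other groups. The limits are the 2 libraries per injected group, their unknown depth, stages re-used from other studies, and poly(A)-primed cDNA.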

Other observations

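Of 6 other genes for poly(A)-binding proteins, *ZC3H14* and *PABPC5* were listed at the stages. *ZC3H14*, a zinc finger protein that restrains tail length, was 40.6, 37.5 and 38.8 FPKM in the MII oocytes, 50.0, 56.9 and 45.8 FPKM at the 4-cell stage and 70.5, 72.0 and 78.0 FPKM at the 8-cell stage. The 3 groups did not overlap, yet the log2 fold changes of 0.37 and 0.90 against MII stayed under the 2-fold limit. Of all tested genes, 51.9% did not overlap between 4-cell and MII, 50.1% between 8-cell and MII and 28.2% between the embryo stages. After knockdown it was 49.1 and 53.3 FPKM, between the 74.3 and 48.1 FPKM of the NC embryos, at -0.22. *PABPC5* was 0.362 to 1.30 FPKM in the untreated libraries, 0.76 and 0.72 FPKM after knockdown, and listed at 0 in both NC libraries. *PABPC4L* was listed in the injected tables, at 0 in 3 libraries and 0.03 FPKM in the *YTHDF2* siRNA replicate 1.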
